A study of Homo sapiens with 12 samples.

Results

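The 34 genes described here encode enzymes that make, interconvert and remove nucleotides and that carry one-carbon units on folate. They were taken by symbol from 2 expression tables of HL-60 cells, a line grown from a human promyelocytic leukaemia, which held values for 60660 and 60662 genes, and all 34 symbols were found in both. By the step they serve, 14 belong to purine synthesis and salvage, 8 to pyrimidine synthesis, 9 to the supply and control of deoxynucleotides and 3 to the folate cycle. The rule for the list is the pathway and uses no measured value, but the list was drawn up with earlier results of these data known. The data are bulk RNA sequencing of 4 groups with 3 libraries each. JMJD3 overexpression stands for HL-60 transduced with the JMJD3-expression vector, and was compared with HL-60 carrying the control vector. The JMJD3 knockout was compared with its parental cells. JMJD3, the protein made from KDM6B, is a histone demethylase that acts on the repressive trimethyl mark of histone H3 laid down by Polycomb. The labels give neither the promoter of the vector, nor the deleted part of the gene, nor the number of clones, and both comparisons rest on this single cell line.

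Dividing cells build purines and pyrimidines from amino acids, bicarbonate and one-carbon units, on a ribose phosphate supplied as PRPP. Folate-bound formyl groups enter the purine ring, and a folate-bound methylene group turns dUMP into dTMP. Ribonucleotide reductase makes the deoxynucleotides, while kinases, phosphatases and salvage enzymes set the balance among them. In blood cells these enzymes are the targets of drugs such as methotrexate, fluoropyrimidines, hydroxyurea and mycophenolate.

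Before any pathway gene is described, KDM6B itself was read in every library. It had 98.0, 99.5 and 83.9 CPM in the JMJD3 overexpression libraries, against 35.2, 34.8 and 24.7 CPM in the vector libraries (log2 fold change 1.57 ± 0.15, adjusted p = 0.000129), and 37.2, 45.2 and 36.9 CPM in the knockout libraries, against 56.6, 56.6 and 59.0 CPM in the parental libraries (log2 fold change -0.53 ± 0.07, adjusted p = 2.44e-05). CPM are counts relative to library size, scaled by TMM within a table, and fold changes carry standard errors from edgeR's quasi-likelihood test, adjusted over all genes of a table with a threshold of 0.05. KDM6B was thus higher with the expression vector and lower, but still present, in the libraries labelled knockout, and no label says whether the counted exons include the deleted part. Library totals lay between 26861304 and 39031314 expected counts in the overexpression table and between 28563546 and 43647715 in the knockout table. Of 7 markers of the labelled promyelocytic cell type, 6 could be tested, and ELANE was at or below 0.158 CPM in every library. With overexpression 4 of the 6 fell: PRTN3 (-3.75), CTSG (-2.09), AZU1 (-1.85) and MPO (-1.05) on the log2 scale, while CD33 and MYB were not called. The list summed to 8752 to 9657 CPM in the overexpression libraries, against 16732 to 20889 CPM in the vector libraries. In the knockout MPO, CTSG, CD33 and MYB fell, PRTN3 rose and AZU1 was not called, and the list summed to 9465 to 10172 CPM in the knockout libraries, against 11364 to 11865 CPM in the parental libraries. Markers of erythroid cells summed to at most 0.0482 CPM and those of epithelial cells to at most 1.09 CPM. The 3 B-cell markers summed to 9.93 to 11.6 CPM with overexpression, against 10.00 to 12.4 CPM in vector cells, and to 19.0 to 20.2 CPM in the knockout, against 7.80 to 9.38 CPM in parental cells. The 3 T-cell markers summed to 1.54 to 1.70 CPM with overexpression, against 1.06 to 1.61 CPM in vector cells, and to 2.44 to 3.48 CPM in the knockout, against 0.811 to 1.09 CPM in parental cells. The 4 fibroblast markers summed to 10.6 to 11.7 CPM with overexpression, against 5.84 to 7.68 CPM in vector cells, and to 9.16 to 11.4 CPM in the knockout, against 7.03 to 7.49 CPM in parental cells. Their part in the results was not tested. In both overexpression and vector cells the third replicate stood apart: the per-gene chi-square between replicates 1 and 2 was 1.49 and 1.59 times counting noise (median), against 13.8 to 18.1 for pairs with replicate 3. No label says that the libraries are separate cultures, so every p-value here refers to differences among these libraries, which may be technical.

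Levels between genes are compared as FPKM, which is per length. NME2, a nucleoside diphosphate kinase, was the highest of the 34 in all 4 groups, at 779.5 ± 70.7 FPKM in overexpressing, 1201 ± 83.0 in vector, 1223 ± 12.6 in knockout and 1117 ± 63.0 in parental cells (SD, n = 3 each). IMPDH2, the main IMP dehydrogenase of proliferating cells, followed in overexpressing, vector and parental cells, at 247 ± 2.76, 413 ± 12.3 and 413 ± 14.7 FPKM, and had rank 3 in knockout cells at 361 ± 4.48 FPKM, behind NME1 at 376 ± 8.72 FPKM. The order below them differed between groups. TYMS, thymidylate synthase, had rank 3 in vector cells at 361 ± 3.78 FPKM but rank 6 in overexpressing cells at 151 ± 3.04 FPKM. DHODH, the mitochondrial dihydroorotate dehydrogenase, and SAMHD1, a dNTP-cleaving hydrolase, were the lowest members apart from CTPS2, with means of 11.7 to 15.2 and 14.3 to 16.5 FPKM over the 4 groups. The levels come from 2 tables that were normalised separately, so only the order within a table is exact.

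**Figure D1:**
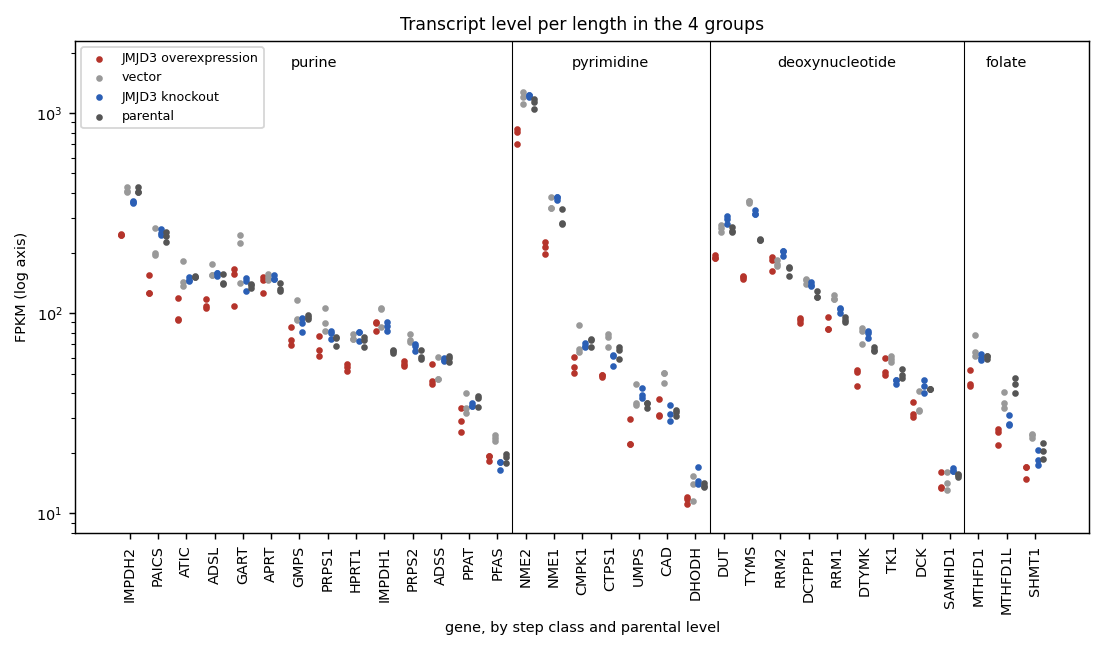
FPKM on a log axis of 33 members in each library, grouped by step and ordered by the parental mean; red, overexpression; light grey, vector; blue, knockout; dark grey, parental, 3 points each. NME2 lies highest in every group, and the overexpression points lie below the vector points for most members.

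A gap in the set was CTPS2, the second CTP synthase, which had 0 counts in 11 of 12 libraries and 1 count in an overexpression library. A limit of 3 counts corresponds to 0.0687 to 0.112 CPM at these depths, which covers counting error only. Its paralog CTPS1 had 89.1 to 146 CPM in the same libraries. CTPS2 was therefore not testable, and all counts of members below are out of 33.

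With JMJD3 overexpression most of the set was lower. Of 33 members tested, 25 fell, 0 rose and 8 were not called, where 23.9% of the 14322 genes tested fell and 26.4% rose. The median log2 fold change of the members was -0.46, beside -0.003 over all genes tested, and all 33 estimates lay below 0. With every estimate below 0, no threshold could put a member higher in this fit. DESeq2 also called 0 members higher after adjustment. The 25 that fell were also the ones whose 3 overexpression libraries all lay below the 3 vector libraries, an arrangement that 28.3% of all genes showed. Summed over the 34 genes, the level was 4391, 4399 and 4592 CPM in the overexpression libraries, against 6324, 6378 and 6657 CPM in the vector libraries. In bulk RNA, fewer cells of a state and less RNA per cell cannot be told apart. Same-numbered libraries deviated together here, but for replicates 1 and 2 the deviations correlated as well across numbers (0.255 and 0.203) as within them (0.199 and 0.238). In the fit blocked on that number 31 of 33 members fell, where 36.8% of all genes fell and 36.4% rose. With replicates 1 and 2 counted as 1 library, 16 members fell, where 11.1% of all genes did. With replicate 3 of both groups left out, 29 fell, where 34.5% of all genes did.

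**Figure D2:**
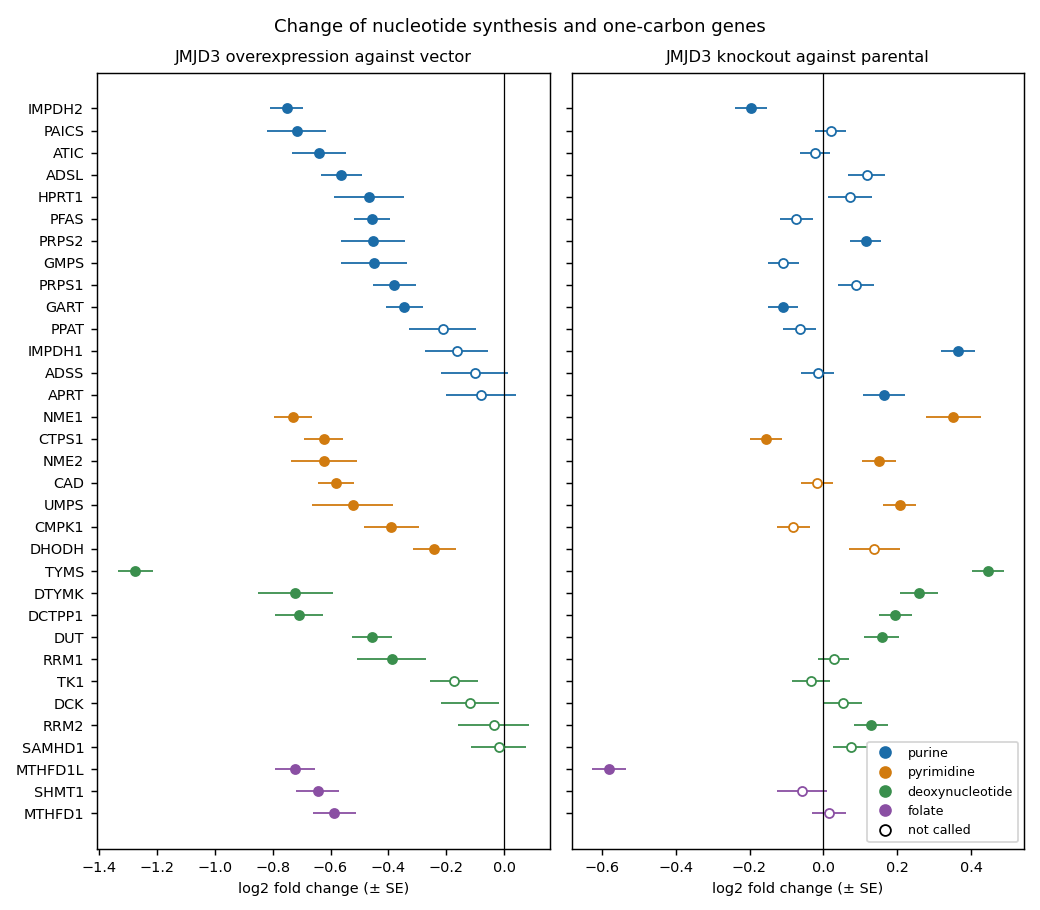
Log2 fold change with its standard error for the 33 members tested, overexpression against vector on the left and knockout against parental on the right, coloured by step; open circles did not pass the adjusted p threshold. All points on the left lie below 0, with TYMS farthest out at -1.27, while those on the right lie on both sides of 0.

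Genes of the purine route fell in 10 of 14 cases (71.4%) with overexpression, where 23.9% of all genes fell. Their median was -0.45. IMPDH2, which opens the branch from IMP to guanine nucleotides (chr3:49024325-49029408, minus strand in GRCh38, GENCODE 29), had 319, 316 and 311 CPM in the JMJD3 overexpression libraries, against 526, 538 and 529 CPM in the vector libraries (log2 fold change -0.75 ± 0.06, adjusted p = 4.27e-05). The libraries of each group lay close together and far from those of the other group. PAICS, which performs carboxylation and succinocarboxamide formation in the middle of the route, had 343, 350.4 and 411 CPM in the JMJD3 overexpression libraries, against 571, 566 and 676 CPM in the vector libraries (log2 fold change -0.72 ± 0.10, adjusted p = 0.000906). For PAICS the third library was the highest of each group, and the groups still did not overlap. ATIC, which closes the purine ring to IMP, had 151, 144 and 173 CPM in the JMJD3 overexpression libraries, against 228, 238 and 264 CPM in the vector libraries (log2 fold change -0.64 ± 0.09, adjusted p = 0.00105). For ADSL, the lyase that serves both the ring and the adenine branch, the values were 147, 146 and 159 CPM in the JMJD3 overexpression libraries, against 218, 216 and 234 CPM in the vector libraries (log2 fold change -0.56 ± 0.07, adjusted p = 0.000447). Neither ATIC nor ADSL overlapped between groups, and both were again highest in the third libraries. The other 6 that fell were HPRT1, the hypoxanthine-guanine salvage enzyme (-0.47), PFAS (-0.46) and GART (-0.34), which act in the middle of the ring synthesis, the PRPP synthetases PRPS2 (-0.45) and PRPS1 (-0.38), and GMPS, which aminates XMP to GMP (-0.45). With replicates 1 and 2 summed, HPRT1, GART, PRPS1, PRPS2 and GMPS lost their calls, and HPRT1 also lost its call without overexpression replicate 1 or 2.

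The 4 purine genes that were not called sit at the entry, at the branches and in salvage. Position did not set them apart, since IMPDH2 and GMPS, of the guanine branch, and HPRT1, of salvage, fell. PPAT, the amidotransferase of the committed first step, had 82.9, 88.3 and 102 CPM in the JMJD3 overexpression libraries, against 96.8, 98.4 and 121 CPM in the vector libraries (log2 fold change -0.21 ± 0.12, adjusted p = 0.164). IMPDH1, the second IMP dehydrogenase, had 144, 146 and 127 CPM in the JMJD3 overexpression libraries, against 167, 167 and 133 CPM in the vector libraries (log2 fold change -0.16 ± 0.11, adjusted p = 0.244). In both genes the highest overexpression library exceeded the lowest vector library, so the groups overlapped. ADSS, which starts the adenine branch, and APRT, the adenine salvage enzyme, gave -0.10 and -0.08. With the replicate block all 4 were called lower, with adjusted p = 2.14e-07 for PPAT, 1.87e-05 for IMPDH1, 0.00478 for ADSS and 0.0352 for APRT. With replicates 1 and 2 summed, 0 of the 4 were called. Scaled by library totals alone, ADSS and APRT came to 0.04 and 0.06, beside an all-gene median of 0.14, so they stayed below that median.

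All 7 pyrimidine genes tested fell with overexpression, where 23.9% of all genes fell. Their median was -0.58. The largest change was in NME1, a kinase that charges nucleoside diphosphates to triphosphates, with 133, 143 and 141 CPM in the JMJD3 overexpression libraries, against 224, 227 and 238 CPM in the vector libraries (log2 fold change -0.73 ± 0.07, adjusted p = 9.76e-05). Its neighbour NME2 had 444, 425 and 346 CPM in the JMJD3 overexpression libraries, against 636, 679.6 and 554 CPM in the vector libraries (log2 fold change -0.62 ± 0.11, adjusted p = 0.00312). Both groups were separate in each gene, and the third libraries were the lowest for NME2. CTPS1, which aminates UTP to CTP, had 89.9, 89.1 and 96.3 CPM in the JMJD3 overexpression libraries, against 139, 138 and 146 CPM in the vector libraries (log2 fold change -0.62 ± 0.07, adjusted p = 0.000235). CAD, the trifunctional enzyme that begins pyrimidine synthesis, had 185, 184 and 181 CPM in the JMJD3 overexpression libraries, against 275, 283 and 265 CPM in the vector libraries (log2 fold change -0.58 ± 0.06, adjusted p = 0.000209). CTPS1 and CAD were tight within a group and did not overlap. UMPS, which completes UMP, and CMPK1, the UMP and CMP kinase, fell by 0.52 and 0.39 on the log2 scale. Both calls were lost with replicates 1 and 2 summed and with library totals alone, and that of UMPS also without overexpression replicate 1 or 2. DHODH, the only mitochondrial step, fell least (log2 fold change -0.24 ± 0.08, adjusted p = 0.0296), and its call was lost in 9 of 15 alternative analyses, among them those without vector replicate 2 or any 1 of the overexpression libraries, with adjusted p up to 0.324. The nested exons of the NME1-NME2 readthrough gene share 18.6% of the exon bases of NME1 and 22.9% of those of NME2, so the reads of the pair could be split between them in the counting.

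Deoxynucleotide genes were divided: 5 of 9 fell (55.6%, where 23.9% of all genes fell) and 4 were not called, with a median of -0.39. TYMS, which makes dTMP from dUMP (chr18:657604-673578, plus strand), had 186, 184 and 178 CPM in the JMJD3 overexpression libraries, against 450.1, 448 and 429 CPM in the vector libraries (log2 fold change -1.27 ± 0.06, adjusted p = 5.40e-06). The 3 overexpression libraries lay close together and far below all vector libraries, and no other member had a larger log2 fold change. DTYMK, the next enzyme on the way to dTTP, had 46.3, 45.0 and 36.3 CPM in the JMJD3 overexpression libraries, against 76.3, 74.6 and 59.5 CPM in the vector libraries (log2 fold change -0.72 ± 0.13, adjusted p = 0.00279). DCTPP1, which hydrolyses dCTP and its modified forms, had 84.6, 86.2 and 77.3 CPM in the JMJD3 overexpression libraries, against 141, 140.2 and 124 CPM in the vector libraries (log2 fold change -0.71 ± 0.08, adjusted p = 0.000362). Both fell in all 3 pairs of same-numbered libraries, and in both the third libraries were lowest. DUT, which supplies dUMP and keeps uracil out of DNA, had 193, 193 and 175 CPM in the JMJD3 overexpression libraries, against 249.7, 262 and 258 CPM in the vector libraries (log2 fold change -0.46 ± 0.07, adjusted p = 0.00105). RRM1, the large subunit of ribonucleotide reductase, had 181, 177 and 225 CPM in the JMJD3 overexpression libraries, against 240.1, 236 and 287 CPM in the vector libraries (log2 fold change -0.39 ± 0.12, adjusted p = 0.0284), and this call was lost in 6 of 15 alternatives, among them those without vector replicate 3 or overexpression replicate 1 or 2, with adjusted p up to 0.155. RRM2, the small subunit made in S phase, had 249, 251 and 311 CPM in the JMJD3 overexpression libraries, against 253, 259.9 and 318 CPM in the vector libraries (log2 fold change -0.04 ± 0.12, adjusted p = 0.824), so the groups overlapped almost entirely. TK1 and DCK, the thymidine and deoxycytidine salvage kinases, gave -0.17 and -0.12. SAMHD1 gave -0.02, with 60.1, 60.9 and 70.7 CPM in the JMJD3 overexpression libraries, against 63.9, 59.9 and 70.6 CPM in the vector libraries, again overlapping. RRM2 and SAMHD1 were the only members left uncalled with the replicate block, and they came to 0.05 and 0.07 with upper-quartile scaling and to 0.11 and 0.12 with library totals alone, settings that put the all-gene median at 0.08 and 0.14, above both.

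All 3 folate-cycle members fell with overexpression, where 23.9% of all genes fell. MTHFD1L, the mitochondrial synthetase that releases formate (chr6:150865549-151101887, plus strand), had 65.3, 70.0 and 65.6 CPM in the JMJD3 overexpression libraries, against 106, 111 and 115 CPM in the vector libraries (log2 fold change -0.72 ± 0.07, adjusted p = 0.000131). MTHFD1, its trifunctional cytosolic counterpart that turns formate back into folate-bound units, had 103, 103 and 113 CPM in the JMJD3 overexpression libraries, against 156, 154 and 169.7 CPM in the vector libraries (log2 fold change -0.59 ± 0.07, adjusted p = 0.000481). SHMT1, the cytosolic serine hydroxymethyltransferase, had 22.1, 22.3 and 20.9 CPM in the JMJD3 overexpression libraries, against 35.3, 32.7 and 34.2 CPM in the vector libraries (log2 fold change -0.64 ± 0.07, adjusted p = 0.000311). No library of one group reached the range of the other in any of the 3 genes.

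**Figure D3:**
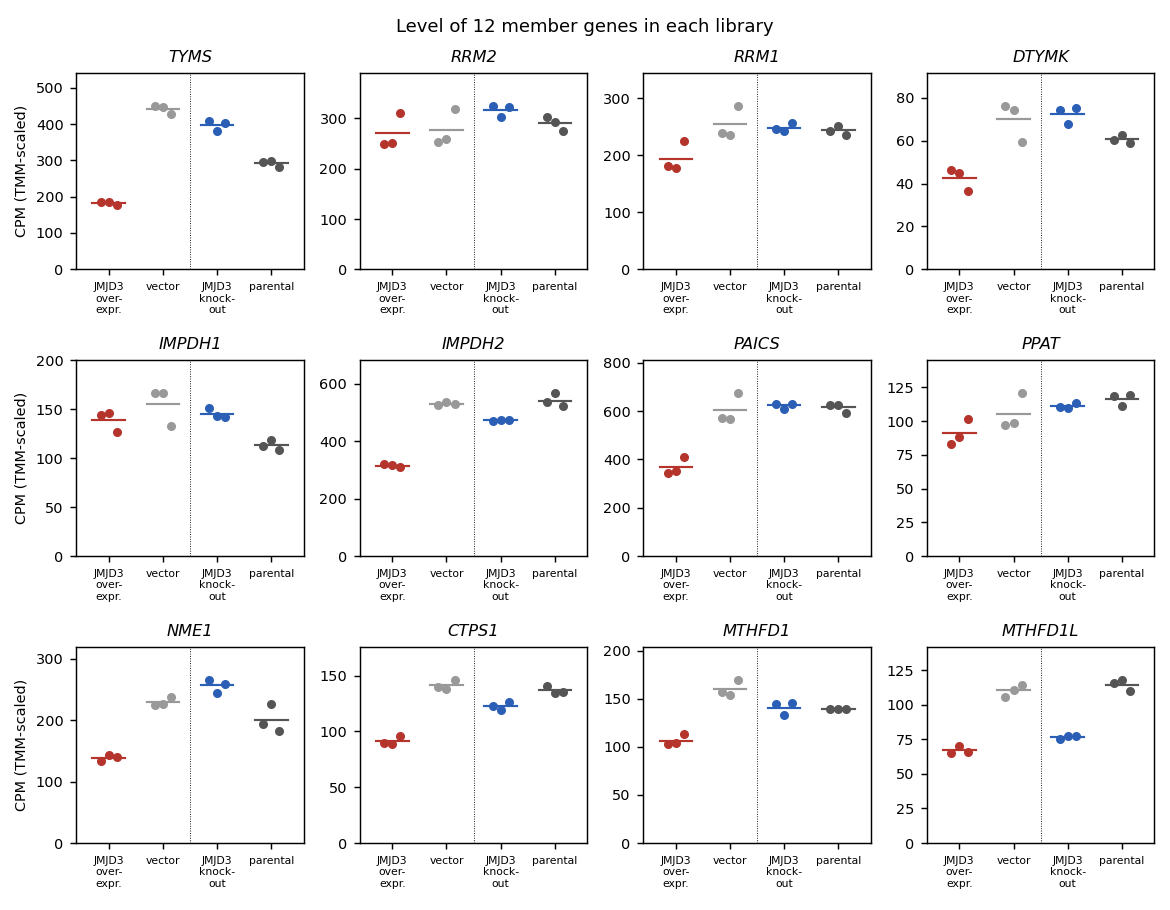
CPM (TMM-scaled within a table, axes from 0) of 12 members in each library; the dotted line separates the 2 tables, points are libraries in replicate order and bars are group means. TYMS is lowest with overexpression (178 to 186 CPM) and higher in knockout (382 to 409 CPM) than in parental cells, while MTHFD1L is lower than its control in both comparisons.

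In the JMJD3 knockout the set went both ways. Of 33 members tested, 11 rose, 4 fell and 18 were not called, where 17.6% of the 14186 genes tested rose and 20.2% fell. The median of the members was 0.05, beside -0.002 over all genes. Libraries did not overlap in 12 members that were higher and in 6 that were lower, arrangements that 23.6% and 25.3% of all genes showed. The members summed to 6426, 6188 and 6429 CPM in the knockout libraries, against 6114, 6278 and 5927 CPM in the parental libraries, so that the sums overlapped. Calls that held in all 15 alternatives were those of TYMS, IMPDH1, NME1, DTYMK and DCTPP1, which rose, and of MTHFD1L and IMPDH2, which fell. Leaving out 1 library moved the number that rose to between 6 and 14 and the number that fell to 2 or 3: without knockout replicate 3, 6 rose, and without parental replicate 3 or knockout replicate 1, 7 rose.

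Of 14 purine genes 3 rose (21.4%) and 2 fell (14.3%) in the knockout, shares near the 17.6% and 20.2% of all genes. IMPDH1 (chr7:128392277-128410252, minus strand) had 86.7, 90.7 and 81.7 FPKM in the knockout libraries, against 65.3, 64.8 and 63.7 FPKM in the parental libraries (log2 fold change 0.36 ± 0.05, adjusted p = 1.32e-05 from the counts). IMPDH2 had 471, 472 and 474 CPM in the knockout libraries, against 535, 569 and 521 CPM in the parental libraries (log2 fold change -0.20 ± 0.04, adjusted p = 0.00185). The 2 IMPDH paralogs thus moved in opposite directions, and in each the libraries of the groups were separate. APRT had 80.0, 74.4 and 76.4 CPM in the knockout libraries, against 69.3, 73.5 and 63.3 CPM in the parental libraries (log2 fold change 0.16 ± 0.06, adjusted p = 0.029), called in 9 of 15 alternatives and not without parental replicate 1 or 3 or knockout replicate 1 or 3. PRPS2 (0.11 ± 0.04, adjusted p = 0.0436) and GART (-0.11 ± 0.04, adjusted p = 0.0461) each kept their call in 3 of 15 alternatives, with adjusted p up to 0.262 and 0.706, and GART changed sign to 0.04 on FPKM. The call of GART was lost without any 1 of the 6 libraries, and that of PRPS2 without parental replicate 1 or 3 or knockout replicate 1 or 3. PPAT, PFAS, PAICS, ADSL, ATIC, GMPS, ADSS, PRPS1 and HPRT1 were not called, with log2 fold changes from -0.11 in GMPS to 0.12 in ADSL.

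Among the 7 pyrimidine genes 3 rose (42.9%) and 1 fell (14.3%), where 17.6% of all genes rose and 20.2% fell. NME1 had 266, 244 and 259 CPM in the knockout libraries, against 194, 227 and 182 CPM in the parental libraries (log2 fold change 0.35 ± 0.07, adjusted p = 0.00399), with parental replicate 2 nearest to the knockout range. NME2 had 687, 663 and 687 CPM in the knockout libraries, against 586, 651 and 599 CPM in the parental libraries (log2 fold change 0.15 ± 0.05, adjusted p = 0.0169), a call kept in 9 of 15 alternatives and lost without parental replicate 1 or knockout replicate 1 or 3. UMPS had 93.0, 91.6 and 95.1 CPM in the knockout libraries, against 82.7, 81.0 and 78.7 CPM in the parental libraries (log2 fold change 0.21 ± 0.04, adjusted p = 0.00145). These 3 were higher in every knockout library than in any parental library. CTPS1 had 123, 119 and 127 CPM in the knockout libraries, against 141, 134 and 135 CPM in the parental libraries (log2 fold change -0.15 ± 0.04, adjusted p = 0.0102), a call kept in 12 of 15 alternatives and lost without parental replicate 1 or knockout replicate 2. CAD, DHODH and CMPK1 were not called, at -0.02, 0.14 and -0.08.

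Deoxynucleotide genes rose in 5 of 9 cases (55.6%) and fell in 0 with the knockout, with a median of 0.13. Over all genes 17.6% rose and 20.2% fell. Of the 9 estimates 1 lay below 0, that of TK1 (unadjusted p = 0.514 from edgeR), so a looser threshold of 0.05 could add little. DESeq2 called none of the 9 lower. TYMS had 409, 382 and 402 CPM in the knockout libraries, against 296, 298 and 282 CPM in the parental libraries (log2 fold change 0.45 ± 0.04, adjusted p = 6.04e-07). All knockout libraries lay well above the highest parental library. DTYMK had 74.4, 67.9 and 75.3 CPM in the knockout libraries, against 60.3, 62.8 and 58.8 CPM in the parental libraries (log2 fold change 0.26 ± 0.05, adjusted p = 0.000962), and DCTPP1 had 132, 134 and 132 CPM in the knockout libraries, against 115, 122 and 111 CPM in the parental libraries (log2 fold change 0.20 ± 0.04, adjusted p = 0.0026). DUT had 278, 272 and 299 CPM in the knockout libraries, against 256, 263 and 242 CPM in the parental libraries (log2 fold change 0.16 ± 0.05, adjusted p = 0.0146), kept in 12 of 15 alternatives and lost without parental replicate 3 or knockout replicate 3. Genes of the enzymes that act in turn on dUTP, dUMP and dTMP were thus higher together, by 11.6% for DUT, 36.2% for TYMS and 19.6% for DTYMK. RRM2 had 325, 304 and 322 CPM in the knockout libraries, against 302, 294 and 274 CPM in the parental libraries (log2 fold change 0.13 ± 0.05, adjusted p = 0.0386), kept in 9 of 15 alternatives and lost without parental replicate 3 or knockout replicate 1 or 3, while RRM1 gave 0.03 and was not called. TK1, DCK and SAMHD1 gave -0.03, 0.05 and 0.07 and were not called.

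Of the 3 folate genes MTHFD1L fell in the knockout (33.3%, where 20.2% of all genes fell), and MTHFD1 and SHMT1 were not called. MTHFD1L had 74.9, 77.6 and 77.3 CPM in the knockout libraries, against 116, 118 and 110.1 CPM in the parental libraries (log2 fold change -0.58 ± 0.05, adjusted p = 4.05e-08), the largest change among the members in this comparison. The knockout libraries lay close together and well below the lowest parental library. MTHFD1 had 144, 133 and 146 CPM in the knockout libraries, against 139, 139 and 139 CPM in the parental libraries (log2 fold change 0.02 ± 0.05, adjusted p = 0.82). SHMT1 gave -0.06 ± 0.07 (adjusted p = 0.55). The cytosolic pair overlapped between groups.

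The comparisons share no library, and the members can be set side by side. TYMS, NME1, NME2, DTYMK, DCTPP1, DUT, UMPS and PRPS2 fell with overexpression and rose with knockout. MTHFD1L, IMPDH2, CTPS1 and GART fell in both. Of these, TYMS, NME1, DTYMK, DCTPP1, MTHFD1L and IMPDH2 held both calls in all 15 alternatives, and the rest each lost a call in some. The knockout calls of PRPS2 and GART held in 3 of 15 and that of NME2 in 9. The share of all genes with either pattern is not given here. A further 13, among them PAICS, ATIC, CAD, MTHFD1 and SHMT1, fell with overexpression and were not called in the knockout, and IMPDH1, RRM2 and APRT rose in the knockout and were not called with overexpression. ADSS, DCK, PPAT, SAMHD1 and TK1 were called in neither. Whether the effects of the 2 comparisons differ was not tested, since the tables were normalised separately.

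Ratios within a library do not depend on its scaling. They were formed from FPKM for 8 pairs in each comparison, and a two-sided exact permutation test of 3 against 3 libraries cannot go below p = 0.1. The IMPDH1 to IMPDH2 ratio was 0.366, 0.364 and 0.327 in the JMJD3 overexpression libraries, against 0.261, 0.259 and 0.2 in the vector libraries, and 0.243, 0.248 and 0.226 in the knockout libraries, against 0.161, 0.151 and 0.158 in the parental libraries. It was higher without overlap in both comparisons, by 0.56 and 0.61 on the log2 scale (exact p = 0.1 each, adjusted 0.267 and 0.16). The vector and parental levels of this ratio were themselves apart, so it is compared within a table only. The RRM2 to RRM1 ratio, small over large subunit, was 2.29, 2.23 and 1.72 in the JMJD3 overexpression libraries, against 1.46, 1.56 and 1.43 in the vector libraries, and 1.95, 1.92 and 1.92 in the knockout libraries, against 1.87, 1.81 and 1.62 in the parental libraries, again higher without overlap in both. This ratio also carries the effective length of RRM2 (count over FPKM, relative to the vector mean). That length was 0.842, 0.871 and 1.23 in the overexpression libraries, against 0.943, 0.901 and 1.18 in the vector libraries. From the counts RRM2 and RRM1 gave -0.04 and -0.39 with overexpression. MTHFD1L over MTHFD1, mitochondrial over cytosolic, was 0.47, 0.471 and 0.498 in the knockout libraries, against 0.728, 0.798 and 0.657 in the parental libraries, without overlap. With overexpression the same ratio was 0.503, 0.577 and 0.505 in the JMJD3 overexpression libraries, against 0.527, 0.585 and 0.516 in the vector libraries and overlapped. NME1 over NME2 was higher without overlap in the knockout (log2 difference 0.21) and overlapped with overexpression (-0.09). SAMHD1 over RRM2, dNTP removal over dNTP synthesis, was lower without overlap in the knockout (-0.21 on FPKM) but came to -0.05 when formed from CPM. PRPS1 over PRPS2 and HPRT1 over PPAT overlapped in both comparisons.

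**Figure D4:**
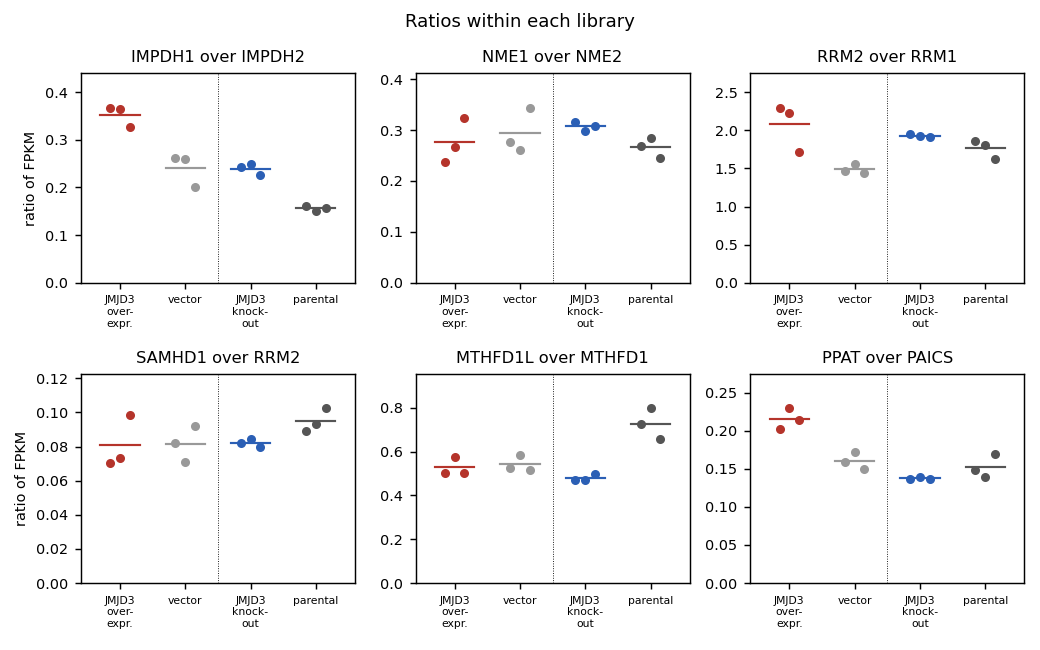
Ratio of FPKM within each library for 6 pairs of members, axes from 0; points are libraries in replicate order, bars are group means and the dotted line separates the tables. IMPDH1 over IMPDH2 is above its control in both comparisons, and MTHFD1L over MTHFD1 is lower in knockout (0.470 to 0.498) than in parental libraries (0.657 to 0.798).

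PPAT and PAICS form a head-to-head gene pair on chromosome 4, with start sites 136 bases apart in RefSeq, and encode the first and a middle step of purine synthesis. Their RefSeq promoter windows, from 250 bases before to 50 after the start, share 236 bases. The ratio of PPAT to PAICS was 0.203, 0.229 and 0.215 in the JMJD3 overexpression libraries, against 0.159, 0.172 and 0.149 in the vector libraries, without overlap (log2 difference 0.43, exact p = 0.1). In the knockout comparison it was 0.137, 0.139 and 0.136 in the knockout libraries, against 0.149, 0.139 and 0.17 in the parental libraries, and the groups overlapped. The pair was added to the ratios after the data were seen.

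Promoters are shown for TYMS and RRM2, which the overexpression data separate, and for MTHFD1L and MTHFD1, which the knockout data separate. PPAT is shown because its window overlaps that of PAICS. Its line holds part of the shared stretch and also bases outside it. RefSeq windows (GRCh38.p14) were matched for 31 of 34 members, with 47 windows in all; ADSL, ADSS and IMPDH2 are named only. Each line gives the 250 bases before the start, written 5′ to 3′ on the gene's strand, and capitals mark exact matches on either strand to the E-box CACGTG, to the E2F forms TTTCCCGC, TTTGGCGC and TTTCGCGC, or to CCAAT.
TYMS, chr18:657403-657652, plus strand: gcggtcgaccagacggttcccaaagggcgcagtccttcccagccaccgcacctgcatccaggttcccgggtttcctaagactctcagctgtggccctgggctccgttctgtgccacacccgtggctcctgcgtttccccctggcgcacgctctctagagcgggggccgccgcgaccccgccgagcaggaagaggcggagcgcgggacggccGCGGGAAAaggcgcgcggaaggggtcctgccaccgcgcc
RRM2, chr2:10122489-10122738, plus strand: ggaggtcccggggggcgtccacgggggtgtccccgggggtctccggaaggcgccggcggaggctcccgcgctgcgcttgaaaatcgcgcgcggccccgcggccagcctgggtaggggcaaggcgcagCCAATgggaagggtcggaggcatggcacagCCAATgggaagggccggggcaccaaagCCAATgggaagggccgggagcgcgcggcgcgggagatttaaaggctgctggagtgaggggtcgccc
PPAT, chr4:56435616-56435865, minus strand: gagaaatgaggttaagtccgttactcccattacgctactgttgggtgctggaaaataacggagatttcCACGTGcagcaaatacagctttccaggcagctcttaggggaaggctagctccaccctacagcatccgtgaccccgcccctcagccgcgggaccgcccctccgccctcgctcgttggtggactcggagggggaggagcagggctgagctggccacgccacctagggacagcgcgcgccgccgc
MTHFD1L, chr6:150866236-150866485, plus strand: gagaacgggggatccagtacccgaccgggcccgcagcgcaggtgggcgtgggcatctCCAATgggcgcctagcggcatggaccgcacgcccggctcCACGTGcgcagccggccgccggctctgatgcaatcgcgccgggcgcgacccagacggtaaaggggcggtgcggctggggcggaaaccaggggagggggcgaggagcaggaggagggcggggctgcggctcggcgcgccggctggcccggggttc
MTHFD1, chr14:64388103-64388352, plus strand: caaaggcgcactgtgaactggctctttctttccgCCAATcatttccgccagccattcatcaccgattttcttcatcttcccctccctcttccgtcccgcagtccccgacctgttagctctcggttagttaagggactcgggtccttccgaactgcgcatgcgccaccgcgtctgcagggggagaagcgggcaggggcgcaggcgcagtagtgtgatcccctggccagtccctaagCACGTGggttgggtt

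In these windows TYMS holds an E2F match 39 bases before the start and no CCAAT, whereas RRM2 holds CCAAT at 123, 93 and 66 bases before the start and no E2F form. Other members went both ways. Over 300 bases DTYMK, RRM1 and CAD hold CCAAT and no E2F form and fell with overexpression, while SAMHD1 holds the same and was not called. DUT and PRPS2 hold an E2F form in a window and fell, while DCK holds 1 and was not called. PPAT holds CACGTG 182 bases before its start. MTHFD1L and MTHFD1 each hold CACGTG, 154 and 15 bases before the start, and CCAAT, 193 and 216 bases before it. The SP1 motif GGGCGG, which is not capitalised above, stands 92, 78 and 41 bases before the start of MTHFD1L and was found 0 times in the window of MTHFD1. Over the 300-base windows of the members, CACGTG was found in 11 of 47 (23.4%) and in 7.26% of all 35116 windows, and an E2F form in 5 of 47 (10.6%) and in 2.74% of all. CCAAT was in 18 of 47 (38.3%) and in 34.6% of all, and GGGCGG in 33 of 47 (70.2%) and in 45.0% of all. Windows of 1 gene overlap and the matches are letters, not measured sites.

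Pathway genes outside the set were read from lists of 72 symbols. With overexpression 6 of 22 one-carbon and serine genes tested rose (27.3%) and 12 fell (54.5%), with a median of -0.36, where 26.4% of all genes rose and 23.9% fell. PHGDH, which starts serine synthesis, had 150.3, 151 and 139 CPM in the JMJD3 overexpression libraries, against 309.8, 302 and 257 CPM in the vector libraries (log2 fold change -0.98 ± 0.09, adjusted p = 0.000113). MTHFD2L, a mitochondrial dehydrogenase of folate, gave -1.01 ± 0.09, while AMT of the glycine cleavage system, gave 1.46 ± 0.23 at low levels (1.84, 1.31 and 1.66 CPM with overexpression, against 0.631, 0.641 and 0.49 CPM in vector cells). MAT2A, which makes the methyl donor S-adenosylmethionine, had 623, 609.7 and 723 CPM in the JMJD3 overexpression libraries, against 317, 320.0 and 367 CPM in the vector libraries (log2 fold change 0.96 ± 0.09, adjusted p = 0.000159). Also called lower were PSPH (-0.92), GCSH (-0.92), SLC25A32 (-0.72), SHMT2 (-0.44) and MTHFD2 (-0.22), named after their values were seen. Called higher besides AMT and MAT2A were, among the 6 that rose, MTRR (0.64) and GGH (0.49). PSAT1, the aminotransferase of serine synthesis, was not called (-0.42 ± 0.16, adjusted p = 0.0548 from edgeR).

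In the knockout 5 of 22 rose (22.7%) and 8 fell (36.4%), with a median of -0.10, where 17.6% of all genes rose and 20.2% fell. PSAT1, the aminotransferase of serine synthesis, had 122, 154 and 127 CPM in the knockout libraries, against 424, 412 and 416 CPM in the parental libraries (log2 fold change -1.64 ± 0.08, adjusted p = 3.95e-07). PHGDH had 147, 166 and 139.5 CPM in the knockout libraries, against 331, 324 and 324 CPM in the parental libraries (log2 fold change -1.11 ± 0.06, adjusted p = 3.56e-10). PSPH, the last enzyme of serine synthesis, had 15.2, 16.5 and 15.6 CPM in the knockout libraries, against 33.0, 33.7 and 36.5 CPM in the parental libraries (log2 fold change -1.12 ± 0.07, adjusted p = 1.82e-09). None of these overlapped between groups, and each held its call in all 15 alternatives. MTHFD2, the mitochondrial methylene-folate dehydrogenase, had 293, 333 and 311 CPM in the knockout libraries, against 538, 528 and 553 CPM in the parental libraries (log2 fold change -0.79 ± 0.05, adjusted p = 2.28e-09). SHMT2, the mitochondrial serine hydroxymethyltransferase, chosen after its values were seen, had 353, 365 and 344 CPM in the knockout libraries, against 549, 550.4 and 546 CPM in the parental libraries (log2 fold change -0.63 ± 0.04, adjusted p = 4.42e-09). MTHFD1L, of the same mitochondrial arm, fell by 0.58. Of other mitochondrial genes in the list, MTHFD2L (-0.08) and SLC25A32 (0.03) were not called and GCSH rose (0.19).

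**Figure D5:**
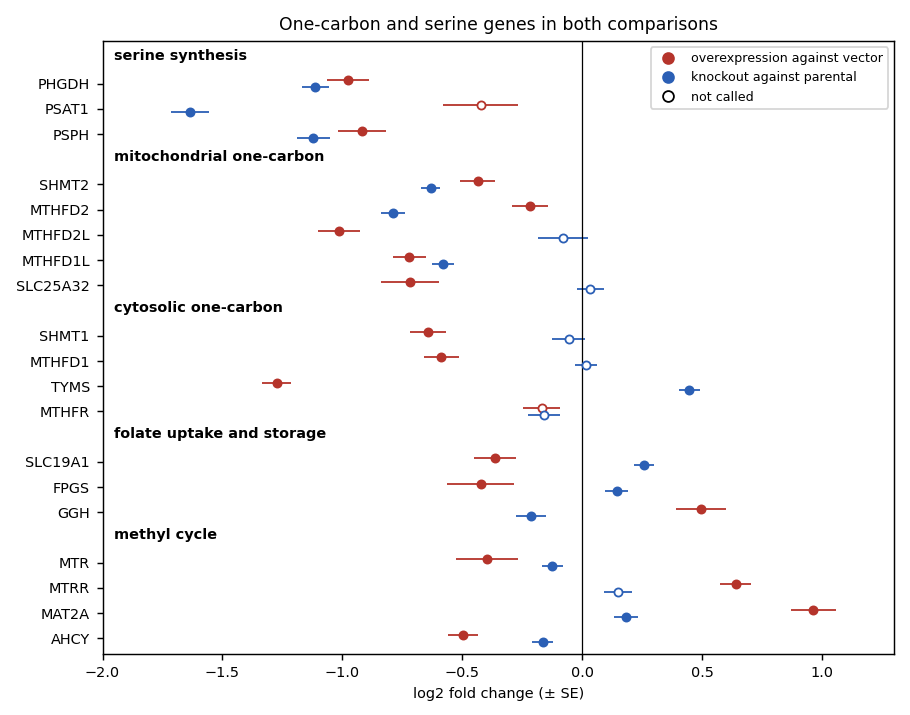
Log2 fold change with its standard error of 19 one-carbon and serine genes, 4 of them members of the set, by compartment or role; red, overexpression against vector; blue, knockout against parental; open circles not called. In the knockout the serine genes PHGDH, PSAT1 and PSPH and the mitochondrial SHMT2, MTHFD2 and MTHFD1L lie at -0.58 or lower, while the mitochondrial MTHFD2L and SLC25A32 lie at -0.08 and 0.03 and the cytosolic SHMT1 and MTHFD1 at -0.06 and 0.02.

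Of 18 other purine genes 4 rose (22.2%) and 8 fell (44.4%) with overexpression, where 26.4% of all genes rose and 23.9% fell. In the knockout 4 of 17 rose (23.5%) and 2 fell (11.8%), where 17.6% and 20.2% of all genes did. GMPR, AK1 and ADSSL1 rose with overexpression (2.04, 1.66 and 1.11) but reached no more than 1.76 CPM in any library, and ADSSL1 held its call in 6 of 15 alternatives and AK1 in 9. AK1 came to 2.81 without vector replicate 3, and its call was lost without vector replicate 1 or 2 or overexpression replicate 2 or 3. That of ADSSL1 was lost without any 1 library except overexpression replicate 3. Among the 8 that fell with overexpression were AK6 (-0.85), AK4 (-0.83) and ADK (-0.75), named after their values were seen. In the knockout the mitochondrial adenylate kinase genes AK4 (-0.47 ± 0.06) and AK3 (-0.40 ± 0.07) fell and GUK1, the GMP kinase, rose (0.37 ± 0.06).

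Of 12 other pyrimidine genes 3 rose (25%) and 2 fell (16.7%) with overexpression, where 26.4% of all genes rose and 23.9% fell. In the knockout 1 of 11 rose (9.09%) and 4 fell (36.4%), where 17.6% and 20.2% of all genes did. CDA, cytidine deaminase, had 4.17, 3.55 and 3.62 CPM in the JMJD3 overexpression libraries, against 0.276, 0.169 and 0.191 CPM in the vector libraries (log2 fold change 4.16 ± 0.22, adjusted p = 7.81e-06). DPYD, which degrades uracil, and UPP1, uridine phosphorylase, gave 3.19 and 1.15, at no more than 2.19 CPM. DPYD had 1.13, 0.954 and 1.01 CPM with overexpression, against 0, 0.27 and 0.0545 CPM in vector cells, and its log2 fold change came to 4.85 without vector replicate 2. UCK1, the uridine-cytidine kinase, fell (-0.51 ± 0.09). In the knockout UPP1 gave -2.56 ± 0.38 at 0.137 to 0.177 CPM, against 0.794 to 1.03 CPM in parental cells, and NME4, the mitochondrial member of the NME family, gave -0.48 ± 0.05. NME3 fell (-0.34 ± 0.10, a call lost without parental replicate 2 or knockout replicate 3) and NME7 rose (0.38 ± 0.08). Of 11 other deoxynucleotide genes 1 rose (9.09%) and 3 fell (27.3%) with overexpression, and 2 rose (18.2%) and 0 fell in the knockout. The shares that fell with overexpression and rose in the knockout were near those of all genes. TK2, the mitochondrial thymidine kinase, rose with overexpression (0.95 ± 0.11), and the nucleoside transporter genes SLC29A2 (-0.82 ± 0.14) and SLC29A1 (-0.40 ± 0.07) and DCTD, the dCMP deaminase (-0.21 ± 0.07, called in 5 of 15 alternatives), fell. RRM2B, the stress-induced small subunit of ribonucleotide reductase, rose in the knockout (0.29 ± 0.06), as did SLC29A1 (0.12 ± 0.04, called in 6 of 15 alternatives).

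Markers of the cell cycle and genes of known regulators were read beside the set. Of 19 S-phase and licensing genes, 17 fell (89.5%) and 2 were not called with overexpression, with a median of -0.60, where 23.9% of all genes fell. They summed to 3328 to 3347 CPM in the overexpression libraries, against 5082 to 5206 CPM in the vector libraries. In the knockout 6 rose (31.6%) and 2 fell (10.5%), where 17.6% of all genes rose and 20.2% fell. They summed to 4334 to 4415 CPM there, against 4064 to 4159 CPM in parental cells. Of 15 G2/M genes, 2 rose (13.3%) and 6 fell (40%) with overexpression, where 26.4% of all genes rose and 23.9% fell. In the knockout 10 rose (66.7%) and the other 5 were not called, where 17.6% of all genes rose. MYC, a transcription factor that binds E-boxes, had 1059.8, 1018 and 818 CPM in the JMJD3 overexpression libraries, against 2347, 2315 and 1660.3 CPM in the vector libraries (log2 fold change -1.13 ± 0.15, adjusted p = 0.000742), and 2114, 2023 and 2027 CPM in the knockout libraries, against 1574, 1552 and 1597 CPM in the parental libraries (log2 fold change 0.38 ± 0.04, adjusted p = 2.18e-06). E2F1, a transcription factor of the G1/S transition, was called in neither (-0.20 and 0.06). Named after their values were seen, TFDP1 fell and rose (-0.44 and 0.21) and E2F2 rose and fell (0.29 and -0.41). Of 13 listed regulators, KDM6B among them, 4 rose and 4 fell (30.8% each) with overexpression, where 26.4% of all genes rose and 23.9% fell. In the knockout 3 of 12 rose and 3 fell (25% each), where 17.6% and 20.2% of all genes did. ATF4, which controls amino acid synthesis genes and was chosen after its values were seen, gave -0.47 ± 0.09 with overexpression and -0.65 ± 0.05 in the knockout. Mitochondrially encoded genes took 5.82% to 6.75% of counts with overexpression, against 3.85% to 4.21% in vector cells, and 4.82% to 5.22% in the knockout, against 4.08% to 5.37% in parental cells. The part of each of these in the changes of the set was not tested.

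The libraries do not mark strand, so reads over exons shared by opposite genes cannot be told apart. TYMS shares 967 of its 2470 exon bases (39.1%) with ENOSF1, whose counts were 8077 in the overexpression table and 10628 in the knockout table, against 59450 and 70114 for TYMS. ENOSF1 gave -0.56 ± 0.07 with overexpression and -0.13 ± 0.06 in the knockout, which was not called and was opposite in sign to TYMS. DCTPP1 shares 666 of 1581 exon bases (42.1%) with ZNF771, which had 1050 and 789 counts beside 20853 and 25495. GART differed in effective length between replicates: its FPKM and CPM disagree in the third libraries of the overexpression table, which hold the lowest FPKM of their groups but the highest CPM. GART had 167, 156 and 109 FPKM in the overexpression libraries, against 246, 225 and 142 FPKM in the vector libraries.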

How the data were processed

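For each comparison the authors deposited 1 table. Per the file headers, each library has a count and an FPKM column, followed by the authors' own test of every gene (log2 fold change, p-value, FDR). Per the labels' protocols, Trizol RNA went into an Illumina TruSeq RNA kit, which does not mark strand. The submitters' processing notes list CASAVA 1.8, TopHat2 2.0.4, RSEM, edgeR and GRCh38, without saying which step produced which column. Each deposited count is an estimated count (expected counts, as RSEM gives) that the authors had multiplied by 1 factor per library, read here from the values: dividing by that factor made 92.8% to 94.0% of values up to 1000 whole within 0.02, and the quotients were rounded. The deposited FPKM served for levels, ratios and 1 alternative. The authors' log2 fold changes had Spearman coefficients of 0.968 and 0.933 with those used here, over 14322 and 14186 genes.

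Groups follow the sample titles. edgeR 4.0.16 (R 4.3.3) was run separately on the 6 libraries of a table, with TMM, filterByExpr and the robust quasi-likelihood test; p-values were adjusted by Benjamini-Hochberg over all genes, at a threshold of 0.05, and the code was tested on simulated data. A standard error is the absolute log2 fold change over the square root of F. Alternatives were DESeq2 1.42.0, limma 3.58.1 on log2(FPKM + 1), upper-quartile scaling, library totals alone, no filter, the columns as deposited, the replicate block, replicates 1 and 2 summed, and each library left out; using replicates 1 and 2 only and the ratio of PPAT to PAICS were added after seeing the data. Whether replicate numbers pair libraries was read from correlated deviations from group means: 0.199, 0.238 and 0.553 for overexpression, taken as pairs although no label states a shared batch and replicates 1 and 2 correlated as well across numbers, and 0.036, -0.123 and -0.069 for knockout, not pairs.

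The members and gene lists were chosen with earlier results of these data known. Per-library values are given for up to 4 called members of each step by absolute log2 fold change and for members of the ratios; named besides are up to 4 called genes of each further list, KDM6B, MYC and E2F1; 2 genes of these lists, counted in the totals, are not reported here. Positions are from GENCODE 29 and promoters from RefSeq.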

Additional observations from a re-analysis of the deposited data

How the results depend on the processing

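Of 33 members, 25 fell with overexpression; 25 fell with DESeq2, 23 with upper-quartile scaling, 18 with library totals alone, 31 with the replicate block, 16 with replicates 1 and 2 summed, 29 with replicates 1 and 2 only and 21 to 26 with a library left out, and 0 rose in any of these. Over all genes 3421 fell, against 2202 with library totals alone, 5274 with the replicate block and 1689 with replicates 1 and 2 summed. In the knockout 11 members rose and 4 fell. With replicates 1 and 2 only 6 rose, with limma on FPKM 2 fell, and with a library left out 6 to 14 rose and 2 to 3 fell. The replicate block gave 8 that rose and 3 that fell there, where the numbers do not pair the libraries. Over all genes 2497 rose and 2860 fell in the knockout, against 1566 that rose with replicates 1 and 2 only and 1563 that fell with limma. The SAMHD1 to RRM2 ratio in the knockout, -0.21 on FPKM, was -0.055 on CPM.

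Some members changed sign. With overexpression, library totals alone gave 0.041 for ADSS, 0.063 for APRT, 0.11 for RRM2, 0.024 for DCK and 0.12 for SAMHD1, upper-quartile scaling gave 0.0082 for APRT, 0.049 for RRM2 and 0.067 for SAMHD1, and limma gave 0.013 for RRM2. Leaving out a library gave -0.20 to 0.017 for ADSS, -0.15 to 0.029 for APRT, -0.15 to 0.088 for RRM2 and -0.10 to 0.061 for SAMHD1. In the knockout, replicates 1 and 2 only gave -0.015 for PAICS, -0.027 for HPRT1, 0.021 for CAD, -0.019 for RRM1, -0.013 for DCK and -0.011 for MTHFD1, limma gave 0.037 for GART and -0.0074 for MTHFD1, and leaving out a library gave -0.033 to 0.020 for ADSS, -0.038 to 0.0054 for ATIC, -0.047 to 0.014 for CAD, -0.0086 to 0.067 for MTHFD1 and -0.11 to 0.0039 for SHMT1. Library totals alone and upper-quartile scaling put the all-gene median at 0.14 and 0.08, against -0.003 with TMM, and the members above moved with that shift. The cause of the other changes was not tested. With 3 libraries a group, the exact test of a ratio cannot go below 0.1, and CTPS2, at 0 counts in 11 of 12 libraries, was under the limit of 3 counts.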
